A study of Mus musculus with 8 samples.

Results

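The genes described here are the secreted protease inhibitor gene Serpina3n, its close relative Serpina3g, and 8 genes of acute-phase and innate response proteins, Saa3, Saa1, Lcn2, Hp, Lbp, Orm1, Ptx3 and Lrg1, 10 genes in all, on arrays that name 18194 genes. Each gene was found by its symbol in the platform annotation, and where several probe sets carried the symbol the one with the highest mean signal over the 8 arrays was used. Of the 10 genes, 9 had a probe set with that symbol alone, and Serpina3g had none and so has no value. 7 of the 9 lay above the filter on low signals and were tested with 12972 genes, and Saa1 and Orm1 lay under it. The genes were chosen by their measured pattern in these same arrays, so that their levels and the p-values of the fit are given as a description and support nothing by themselves.

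The arrays measured RNA of subcutaneous tumours grown from the mouse oropharyngeal carcinoma line MOPC in C57BL/6 wild-type (WT) hosts or in hosts that lack Tlr3, Tlr7 and Tlr9 (Tlr3/7/9-/-, here KO), the endosomal receptors for nucleic acids. The injected cells were the same in all groups, so the genotype is that of the host alone, and the host cells in the tumour carry the deletion. There were 4 groups of 2 arrays, WT and KO at day 4 and WT and KO at day 6 after injection, and hosts of the day 6 tumours were 8 to 16 weeks old. The question behind the day 6 arrays is how the tumours of both host genotypes differ before those of the KO hosts regress, and the day 4 arrays hold the same comparison earlier.

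Acute-phase proteins are secreted in inflammation, mostly by hepatocytes, but adipocytes, fibroblasts, macrophages, epithelium and tumour cells also make several of them. Their genes are classical targets of IL-6 through STAT3, of IL-1 and TNF through NF-kappaB and C/EBP factors, and of glucocorticoids. Serpina3n belongs to a cluster of clade A serpins on mouse chromosome 12 and inhibits serine proteases such as granzyme B, cathepsin G and neutrophil elastase.

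On brightest probe sets, the signal of Tlr7 ran from 382.9 to 673.4 over the WT arrays and from 10.8 to 80.1 over the KO arrays. Tlr3 was 543.9 to 811.1 in WT and 224 to 427.2 in KO arrays, and Tlr9, under the filter, was not lower in KO. Whether these probe sets cover the deleted parts is unknown here. Xist was 5579.1 to 7121.0 in every day 6 array and at most 142.1 at day 4, and Eif2s3y on the Y chromosome was 798.1 to 1176.7 at day 4 and at most 33.0 at day 6, so that day and host sex cannot be told apart in any comparison of the days. Skeletal muscle markers (8 of 8 measured) summed to 122354 in WT day 4 replicate 2, 48726 in KO day 6 replicate 2 and 21467 in KO day 4 replicate 2, against 815 to 1064 elsewhere, and KO day 6 replicate 2 also held cornified skin markers at 16177 against 974 to 1346. Hepatocyte markers were near background, with 7 of 8 under the filter and albumin (Alb) at 7.5 to 132.9.

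The genes lie at separate places of the mouse genome, except for the pairs of serpins and of Saa genes. In the RefSeq table of build GRCm38.p6, Serpina3n spans chr12:104406646-104414334 and Serpina3g chr12:104236147-104241939, while Saa3 spans chr7:46711998-46719615 and Saa1 chr7:46740497-46743181. The probe sets of the arrays have no coordinates here. Promoter windows from RefSeq were held for 7 of the 10 genes, not for Hp, Lbp and Orm1. The bases before the start are shown for the tested genes with a window whose KO arrays all lay under the WT arrays at day 4, and for Serpina3g as the relative of Serpina3n. Capitals mark matches on either strand to a STAT3-type motif (TTCNNNGAA, found in 7.02% of all 32851 windows of 250 bases), an NF-kappaB-type motif (GGG and TTTCC with any 2 bases between them, 1.41%), a C/EBP-type motif (TTGCNNAA, 9.56%) and a glucocorticoid receptor-type motif (ACANNNTGT, 5.84%), and no match overlapped another. The sequences read 5′ to 3′ on the strand of the gene. The coordinates are chr12:104406458-104406645 on the plus strand for Serpina3n, where the stretch ends before the first base of the gene span, upstream of the start that the window is set on, chr12:104235897-104236146 on the plus strand for Serpina3g, chr2:32387740-32387989 on the minus strand for Lcn2, chr3:66219637-66219886 on the plus strand for Ptx3 and chr17:56121947-56122196 on the minus strand for Lrg1.
Serpina3n: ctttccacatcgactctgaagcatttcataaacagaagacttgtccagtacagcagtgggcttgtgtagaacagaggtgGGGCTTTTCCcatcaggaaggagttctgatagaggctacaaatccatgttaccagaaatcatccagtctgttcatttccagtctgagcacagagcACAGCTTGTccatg
Serpina3g: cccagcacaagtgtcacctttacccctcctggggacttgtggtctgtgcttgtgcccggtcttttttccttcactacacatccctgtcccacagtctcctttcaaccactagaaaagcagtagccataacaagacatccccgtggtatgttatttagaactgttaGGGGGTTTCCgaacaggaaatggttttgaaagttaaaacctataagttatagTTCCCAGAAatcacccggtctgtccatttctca
Lcn2: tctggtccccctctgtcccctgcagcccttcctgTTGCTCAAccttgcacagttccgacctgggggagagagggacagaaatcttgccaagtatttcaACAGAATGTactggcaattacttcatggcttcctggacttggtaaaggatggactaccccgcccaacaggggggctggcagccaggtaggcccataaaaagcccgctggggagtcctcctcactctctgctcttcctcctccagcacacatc
Ptx3: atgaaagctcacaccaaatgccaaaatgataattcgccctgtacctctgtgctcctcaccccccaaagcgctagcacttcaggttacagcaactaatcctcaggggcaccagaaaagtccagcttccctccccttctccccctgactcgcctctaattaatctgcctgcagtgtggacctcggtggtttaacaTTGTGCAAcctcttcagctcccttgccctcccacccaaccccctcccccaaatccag
Lrg1: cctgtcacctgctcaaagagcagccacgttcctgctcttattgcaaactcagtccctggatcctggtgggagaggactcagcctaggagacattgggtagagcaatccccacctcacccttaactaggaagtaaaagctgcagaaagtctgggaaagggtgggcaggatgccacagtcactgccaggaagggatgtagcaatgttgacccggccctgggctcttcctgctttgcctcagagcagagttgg

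Both serpin windows hold the NF-kappaB-type letters, 109 to 100 bases before the start of the gene given above in Serpina3n and 85 to 76 in Serpina3g. Serpina3n also has the glucocorticoid receptor-type letters 14 to 6 bases before that start, and Serpina3g the STAT3-type letters 33 to 25 bases before it. Lcn2 has a C/EBP-type and a glucocorticoid receptor-type match, Ptx3 a C/EBP-type match 57 to 50 bases before the start, and the windows of Saa3 and Saa1, which are not shown, a C/EBP-type match each. Lrg1 has none of these letters in its window. The matches describe the sequence, and the arrays hold no measurement of binding.

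Serpina3n was highest in tumours of WT hosts at day 4 and lowest in those of KO hosts at the same day. Its signals were 2130.2 and 2682.2 in WT day 4, 659.1 and 562.0 in KO day 4, 1102.9 and 1269.1 in WT day 6 and 1079.8 and 847.9 in KO day 6. The group means were 2406 ± 390 (SD, n = 2), 610.6 ± 68.7 (SD, n = 2), 1186 ± 118 (SD, n = 2) and 963.9 ± 164 (SD, n = 2), in the same order. Thus every WT array of day 4 lay above all other arrays and every KO array of day 4 below all others, while both groups of day 6 lay between them. With 4.77-fold between the highest and the lowest array, Serpina3n varied more than most tested genes, since its range of 2.22 on the log2(signal + 16) scale compares with a median of 0.75 and a 95th percentile of 2.28 over all 12972 tested genes.

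At day 4, the log2(signal + 16) of Serpina3n was lower in KO than in WT by 3.85-fold, a log2 difference of -1.95 (standard error 0.19, 95% interval -2.37 to -1.52, adjusted p = 0.0269 from limma). Folds on this scale understate those of dim genes. The p-values rest on the spread between 2 samples a group, pooled over the 4 groups. The labels do not trace these samples to separate animals. Serpina3n was 1 of the 2 genes called at that day, which are 0.0154% of the genes tested, and the only called gene among the 7 tested here. At day 6, both KO arrays were also under both WT arrays, but by 1.23-fold, a log2 difference of -0.30 (standard error 0.19, adjusted p = 0.851 from limma). Such a separation in this direction was seen for 20.9% of all tested genes at day 6. The mean of the KO effects of both days was -1.12 (standard error 0.13, adjusted p = 0.0518 from limma), and 0 of the 7 tested genes were called there, with 0.0308% called over all tested genes. Serpina3n alone among the 7 had both KO arrays under both WT arrays within each day, a pattern shown by 4.72% of all tested genes.

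The order of the group levels of Serpina3n was WT day 4, WT day 6, KO day 6 and KO day 4. The neighbours WT day 4 and WT day 6 passed the test, which pools the spread of all 4 groups, with a log2 difference of -1.005 for day 6 (standard error 0.19, adjusted p = 0.0255 from limma). Fitted on these 2 groups alone the difference did not pass (adjusted p = 0.0938 from limma). The neighbours WT day 6 and KO day 6 did not pass the test, and for KO day 6 above KO day 4 the log2 difference was 0.64 (standard error 0.19, adjusted p = 0.0768 from limma). The day effect thus had opposite signs in the hosts, with no overlap of arrays in either. The difference between the day effects, which equals the difference between the KO effects, was 1.64 (standard error 0.26, 95% interval 1.04 to 2.25) and did not pass when adjusted over all genes (adjusted p = 0.994 from limma). In that comparison limma called 0% of all tested genes, of which 265 had a positive and 303 a negative difference at an unadjusted p under 0.05.

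The call of Serpina3n at day 4 depended on the setting. It was kept under 12 of 22 alternatives with an adjusted p and lost under 10, among them 5 of the 8 fits that left out an array. Leaving out either WT array of day 6 gave adjusted p = 0.125 and 0.130 from limma, leaving out WT day 4 replicate 2 gave 0.106, and leaving out KO day 4 replicate 1 or replicate 2 gave 0.327 and 0.661. The log2 difference itself lay between -2.11 and -1.67 under all 22 alternatives. Without the 3 arrays with high muscle markers, 1 array was left in each day 4 group and the log2 difference was -1.67 (adjusted p = 0.263 from limma). The call between the days in WT was kept under 15 of 22 alternatives and lost under 7, among them the fits without WT day 6 replicate 1, WT day 4 replicate 2, KO day 4 replicate 1 or KO day 4 replicate 2, where the adjusted p from limma ran from 0.0573 to 0.184.

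**Figure D1:**
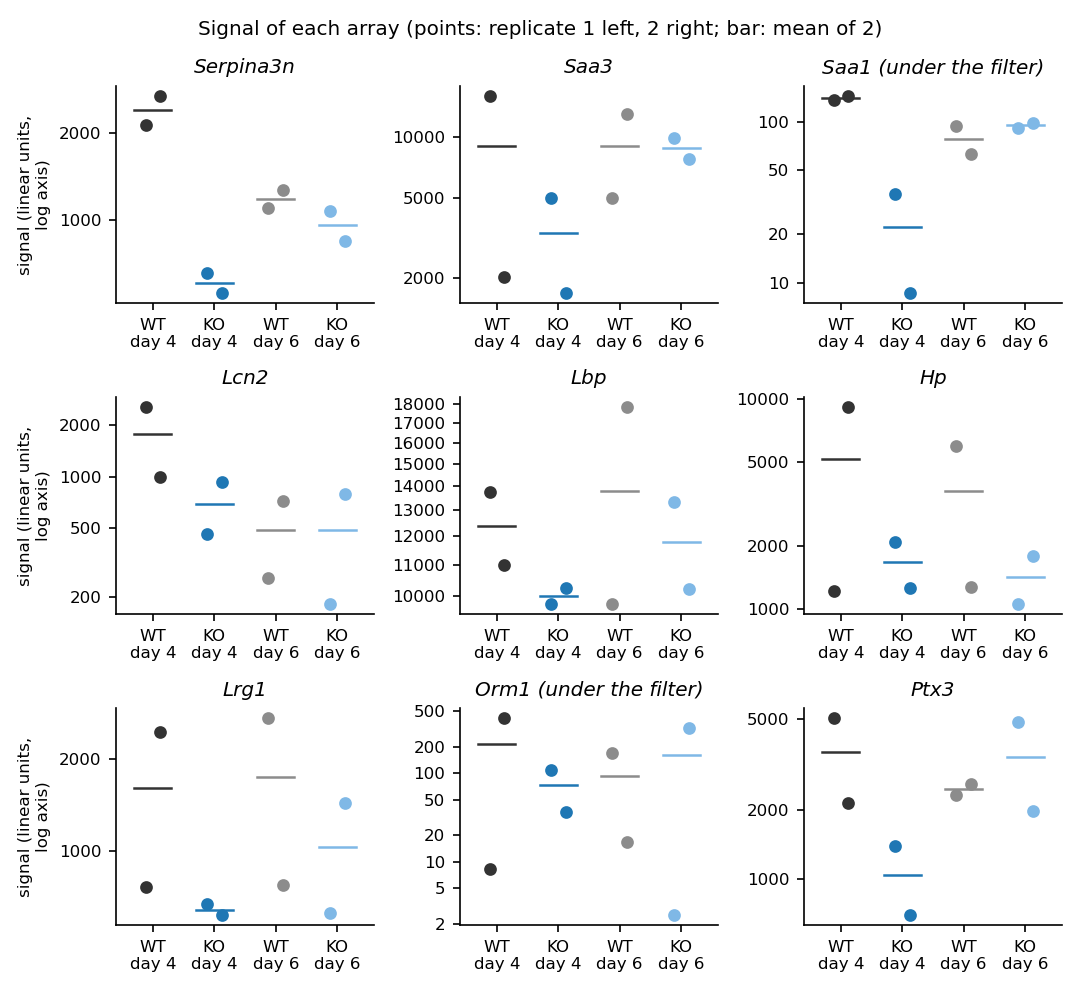
Signal of the 9 genes with a probe set on each of the 8 arrays, on a logarithmic axis in linear signal units, with replicate 1 on the left and replicate 2 on the right of each group and a bar at the mean of 2 arrays. Serpina3n lay at 2130.2 and 2682.2 in WT day 4 and at 659.1 and 562.0 in KO day 4, whereas the arrays of a group were far apart for Saa3, Hp and Orm1.

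**Figure D2:**
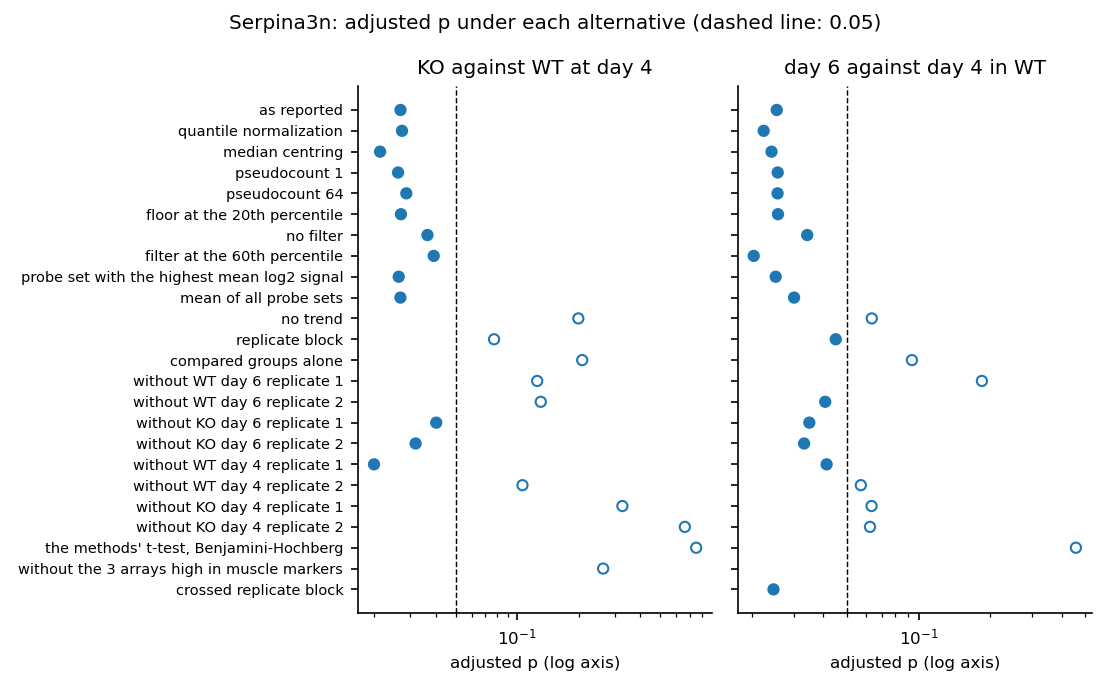
Adjusted p of Serpina3n on a logarithmic axis under each alternative, for KO against WT at day 4 and for day 6 against day 4 in WT, with filled points under 0.05 and open points at or above it. At day 4 the values run from 0.02 without WT day 4 replicate 1 to 0.751 with the plain test that the methods name, after adjustment.

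At day 4 the sums of several cell type markers also lay apart between the hosts. Fibroblast markers (8 of 8 above the filter) summed to 179596 to 183619 in WT day 4, 154084 to 161586 in KO day 4, 126872 to 152856 in WT day 6 and 136538 to 143219 in KO day 6, so they were highest in WT day 4 and, unlike Serpina3n, lowest at day 6. Macrophage markers (8 of 8 above the filter) were 101232 to 136241 in WT day 4 and 74322 to 82193 in KO day 4, the lowest group. The order of their group means was that of Serpina3n, WT day 4, WT day 6, KO day 6 and KO day 4, but at 101232 WT day 4 replicate 1 lay under both WT arrays of day 6, at 116298 and 117068. Endothelial markers (7 of 7) went the other way, with 4425 to 5164 in WT day 4 and 6452 to 8029 in KO day 4. None of these markers was at 0 in any array. Their part in the Serpina3n difference was not tested, and in such bulk tumour RNA fewer cells of a type and less RNA per cell cannot be told apart. Granzyme B (Gzmb), a protease that Serpina3n inhibits, was at 247.0 and 293.8 in WT day 4 and 143.8 and 90.0 in KO day 4, and at 1274.6 to 1753.9 in all 4 arrays of day 6.

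Over the 8 arrays, the tested genes with the pattern most like Serpina3n were Ptprj, a receptor tyrosine phosphatase (Pearson r = 0.956 of log2(signal + 16)), the orphan receptor genes Gpr146 (r = 0.931) and Gpr162 (r = 0.929), Pxk (r = 0.920) and Stx7, a syntaxin of endosomes (r = 0.916). The points share 8 arrays in 4 groups, and these values describe likeness only. All 5 varied less over the arrays than Serpina3n. Ptprj was at 1435.0 and 1445.9 in WT day 4 and at 1052.1 and 883.7 in KO day 4, a log2 difference of -0.57 (adjusted p = 0.469 from limma). The described genes themselves were left out of this ranking.

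**Figure D3:**
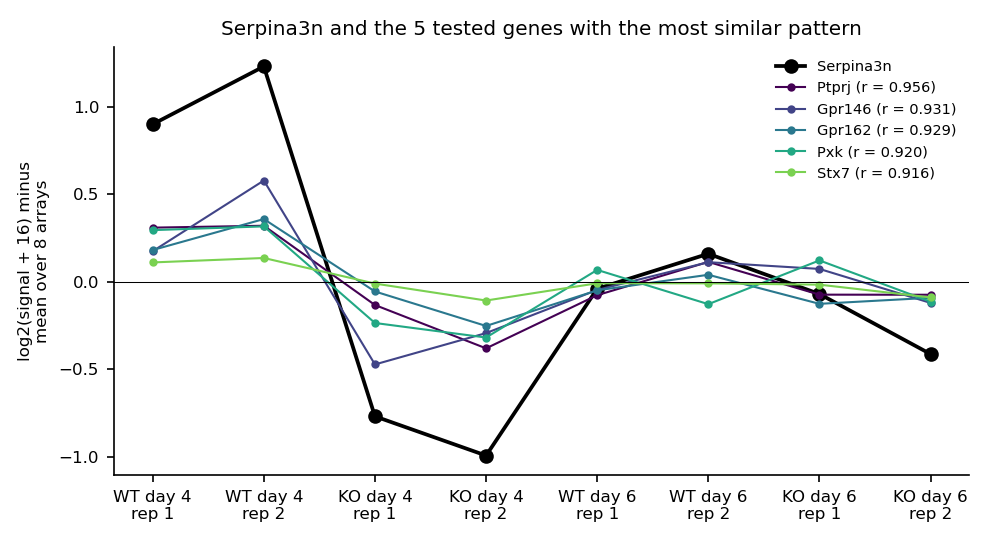
log2(signal + 16) minus the mean over 8 arrays, for Serpina3n in black and for the 5 tested genes with the highest Pearson correlation with it, over the 8 arrays in 4 groups, with lines drawn only to join the points of a gene. Serpina3n spans 2.22 on this scale, and Ptprj, the most similar at r = 0.956, spans far less.

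Of the serum amyloid A genes, Saa3 encodes a form made outside the liver and Saa1 a main circulating form. Saa3 signals were 16091.8 and 2029.1 in WT day 4, 4993.6 and 1683.0 in KO day 4, 4991.0 and 13145.6 in WT day 6 and 9981.2 and 7793.3 in KO day 6. The WT arrays of day 4 were 7.93-fold apart, the widest gap of Saa3 in any group, and the groups overlapped except that both KO arrays of day 6 lay above both of day 4. At day 4 the log2 difference of KO against WT was -0.98 (standard error 0.90, adjusted p = 0.912 from limma), and from day 4 to day 6 in KO it was 1.60 (standard error 0.90, adjusted p = 0.294 from limma). WT day 4 replicate 1, where Saa3 was highest, was also the array with the highest neutrophil markers, and WT day 4 replicate 2 had the lowest. The other arrays did not all follow this match.

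The neutrophil markers (11 of 13 measured, 8 above the filter and none at 0) summed to 12769 and 1656 in WT day 4, 2303 and 5375 in KO day 4, 5251 and 4451 in WT day 6 and 8690 and 8550 in KO day 6. S100a8, which neutrophils express strongly, was at 5636.4 in WT day 4 replicate 1 and at 297.4 in replicate 2. WT day 6 replicate 2, where Saa3 was at 13145.6, had a sum of only 4451, and KO day 4 replicate 2, where Saa3 was lowest at 1683.0, had 5375. KO day 6 replicate 1, where Lcn2 was lowest at 180.9, had a high sum of 8690. The part of neutrophils in the levels of Saa3 and Lcn2 was not tested.

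Saa1 was measured by a faint probe set with signals of 136.6 and 144.9 in WT day 4, 35.6 and 8.6 in KO day 4, 93.7 and 62.6 in WT day 6 and 91.2 and 98.8 in KO day 6. Its mean of log2(signal + 16) lay under the filter, although its mean linear signal was 84.0. Both WT arrays were above both KO arrays at day 4, and the groups overlapped at day 6. The log2 difference of KO against WT was -2.14 at day 4 (standard error 0.45) and 0.26 at day 6 (standard error 0.45), neither tested over all genes. The day 4 value rests on KO signals near background, and over 16 alternatives it ran from -2.92 to -1.27, moving by more than the spread between replicates under 5. From day 4 to day 6 it was -0.75 in WT (95% interval -1.78 to 0.27) and 1.64 in KO (0.61 to 2.66), with no overlap of arrays in either host. The accession of this probe set is that of Saa2 in the RefSeq table, although the annotation names it Saa1, and RNA of the near-identical genes Saa1 and Saa2 may bind to it alike. A fainter probe set with the accession of Saa1 gave 55.5 and 94.1 in WT day 4, 28.6 and 5.8 in KO day 4, 43.9 and 35.9 in WT day 6 and 66.6 and 104.0 in KO day 6, with the same gap between the groups of day 4. On both probe sets the KO signals of day 4 lay under the 40th percentile of all signals of their arrays, at 87.4 and 95.6.

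Of the carriers and scavengers of small molecules, Lcn2, which binds bacterial siderophores and is released by neutrophils and epithelium, was at 2548.6 and 999.9 in WT day 4, 462.1 and 927.2 in KO day 4, 258.3 and 718.4 in WT day 6 and 180.9 and 795.9 in KO day 6. Its highest array was WT day 4 replicate 1, as for Saa3, and the WT arrays of day 4 lay above all others. The log2 difference was -1.27 for KO against WT at day 4 (standard error 0.74, adjusted p = 0.823 from limma) and -1.85 for day 6 against day 4 in WT (standard error 0.74, adjusted p = 0.165 from limma). At day 6 the arrays of both hosts overlapped over nearly their whole range.

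Lbp, which hands lipopolysaccharide to CD14 and TLR4, was the steadiest of the 9 genes, with signals of 13766.4 and 10985.0 in WT day 4, 9737.5 and 10245.4 in KO day 4, 9755.6 and 17864.3 in WT day 6 and 13345.5 and 10210.1 in KO day 6. It spanned only 0.87 on the log2(signal + 16) scale over the 8 arrays. Its KO arrays lay under the WT arrays at day 4, but the log2 difference was -0.30 (standard error 0.26, 95% interval -0.90 to 0.30, adjusted p = 0.902 from limma). A dimmer probe set of Lbp ran from 108.3 to 372.8 and was likewise lower in KO at day 4, at 161.2 and 108.3 against 215.3 and 188.9.

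Haptoglobin (Hp), which binds free haemoglobin, Lrg1, a glycoprotein that modulates TGF-beta signalling in endothelium, and Orm1, a carrier of plasma ligands, were high on single arrays rather than in a group. Hp was at 1224.0 and 9167.8 in WT day 4, 2083.3 and 1260.5 in KO day 4, 5990.1 and 1282.4 in WT day 6 and 1060.2 and 1798.5 in KO day 6. Lrg1 was at 767.1 and 2450.0 in WT day 4, 671.2 and 619.2 in KO day 4, 2719.7 and 777.0 in WT day 6 and 629.1 and 1434.3 in KO day 6. Orm1, under the filter, was at 8.4 and 422.0, 109.3 and 36.7, 168.7 and 16.7, and 2.5 and 320.9 in the same order. WT day 4 replicate 2 and WT day 6 replicate 1 were the 2 highest arrays of Hp and Lrg1 and among the 3 highest of Orm1, and the replicate beside each of them was low. The standard error of the log2 difference was thus 0.93 for Hp and 0.67 for Lrg1, and for KO against WT at day 4 the differences were -1.04 (adjusted p = 0.907 from limma) and -1.07 (adjusted p = 0.842 from limma).

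The adipocyte markers (7 of 9 measured, 5 above the filter and none at 0) were highest in the same arrays as Hp. They summed to 11387 and 24962 in WT day 4, 12331 and 9632 in KO day 4, 18127 and 10861 in WT day 6 and 6500 and 6843 in KO day 6. The 3 highest arrays of Hp, WT day 4 replicate 2, WT day 6 replicate 1 and KO day 4 replicate 1, were the 3 highest of the adipocyte sum in the same order. Adipoq, the adipokine gene that marks fat cells, was at 3174.0, 2044.3 and 811.5 in them and at 76.0 to 538.7 elsewhere. KO day 6 replicate 2 broke the match for the other two genes, since it was the second highest array of Orm1 at 320.9 and the third highest of Lrg1 at 1434.3, with an adipocyte sum of 6843. WT day 4 replicate 2 and KO day 6 replicate 2 also had the highest muscle marker sums, at 122354 and 48726. However, WT day 6 replicate 1 had a muscle sum of only 1018. KO day 4 replicate 2, with a muscle sum of 21467, had Hp, Lrg1 and Orm1 at 1260.5, 619.2 and 36.7. The parts of adipocytes and of muscle in the levels of Hp, Lrg1 and Orm1 were not tested. The hepatocyte markers, near background in all arrays, summed to at most 465.1.

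Ptx3, a long pentraxin that binds C1q and is made at sites of inflammation by myeloid and stromal cells, was lowest in KO tumours of day 4, as was Serpina3n. Its signals were 5044.5 and 2148.4 in WT day 4, 1398.2 and 696.8 in KO day 4, 2321.4 and 2608.7 in WT day 6 and 4852.8 and 1974.1 in KO day 6. Both KO arrays of day 4 were the lowest of all 8. The log2 difference of KO against WT was -1.72 at day 4 (standard error 0.51, 95% interval -2.89 to -0.56, adjusted p = 0.533 from limma) and 0.33 at day 6 (standard error 0.51, adjusted p = 0.933 from limma). From day 4 to day 6 in KO it was 1.63 (standard error 0.51, adjusted p = 0.0896 from limma). The other probe set of Ptx3 lay at 32.9 to 78.6, under the filter, and its groups overlapped at day 4.

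**Figure D4:**
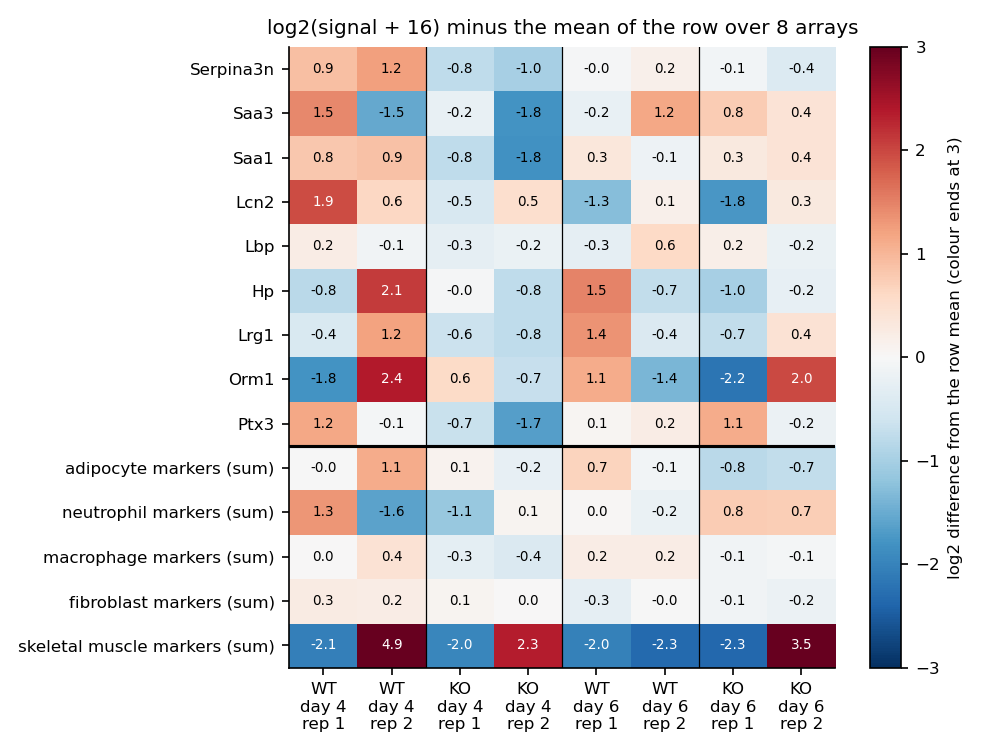
Each cell gives log2(signal + 16) of 1 array minus the mean of its row over the 8 arrays, for the 9 genes above the line and for the summed signals of 5 lists of cell type markers under it, with the colour ending at 3. Hp, Lrg1 and Orm1 are high in WT day 4 replicate 2 and WT day 6 replicate 1, where the adipocyte sum is high too, but Orm1 and Lrg1 are also raised in KO day 6 replicate 2, where that sum is low. The muscle sum is high in replicate 2 of WT day 4, KO day 4 and KO day 6, and low in WT day 6 replicate 1. Saa3 and Lcn2 peak in WT day 4 replicate 1 with the neutrophil sum. However, Saa3 is also high in WT day 6 replicate 2, where the neutrophil sum is not, and Lcn2 is lowest in KO day 6 replicate 1, where that sum is high.

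Set side by side, the 7 tested genes all had a negative difference for KO against WT at day 4. Their median was -1.07 on the log2 scale beside 0.01 over all tested genes, of which 6702 of 12972 had a positive difference. For Saa3 and Hp the sign turned when 1 array was left out, with log2 differences up to 0.51 and 0.40. For 5 of the 7, Serpina3n, Lcn2, Lbp, Ptx3 and Lrg1, both KO arrays lay under both WT arrays, which 16.8% of all tested genes did. Saa1 among the 2 untested genes did so too and Orm1 did not. At day 6, 0 of the 7 were called, with 0.0154% called over all tested genes, 5 had a negative and 2 a positive difference, and the median was -0.18. Both comparisons were made within arrays of the same day, so that day is shared by their groups.

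Between the days in WT hosts, 1 of the 7, Serpina3n, was called and lower at day 6, where 5.8% of all tested genes were called. Serpina3n and Lcn2 lay lower in both arrays of day 6, as 24.5% of all tested genes did. In KO hosts 0 of the 7 were called and 6.24% of all tested genes were. There Serpina3n, Saa3 and Ptx3 were higher in both arrays of day 6, as were 30.8% of all tested genes, and 5 of the 7 differences were positive with a median of 0.55. The WT and KO values of a day serve in both kinds of comparison, so the 2 views share arrays.

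**Figure D5:**
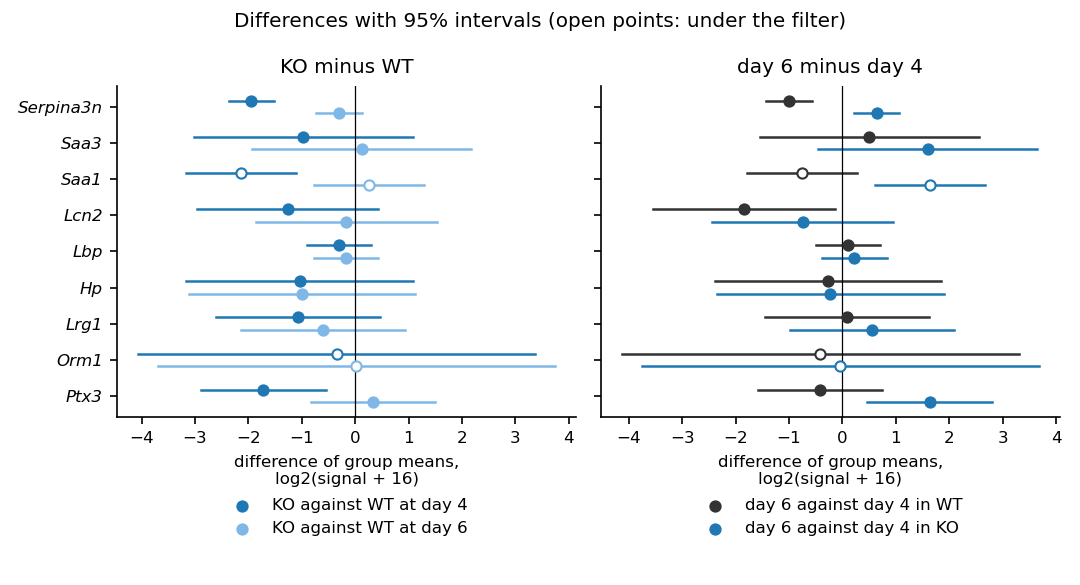
Differences of group means on the log2(signal + 16) scale with 95% intervals, for KO minus WT at both days on the left and day 6 minus day 4 in both hosts on the right, with open points for the genes under the filter. The Serpina3n interval at day 4 runs from -2.37 to -1.52 and that at day 6 from -0.73 to 0.12. The intervals of Hp, Saa3, Orm1, Lbp and Lrg1 cross 0 throughout.

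Other acute-phase genes were measured less well, since 22 of 26 had a probe set and only 9 lay above the filter. In KO against WT, 0 of these 9 were called at either day, beside 0.0154% of all tested genes. Their medians were -0.12 at day 4 and -0.39 at day 6 on the log2 scale. In WT hosts, 8 of the 9 differences from day 4 to day 6 were negative and 2 were called lower. Over all tested genes 5.8% were called in either direction, and 214 of 12972 were called lower. Serping1, the C1 inhibitor, went from 10943.1 and 12042.6 to 5259.9 and 5736.3 (log2 difference -1.06, adjusted p = 0.0184 from limma), and Cfb, complement factor B, from 2387.2 and 3608.6 to 819.7 and 1432.5 (-1.42, adjusted p = 0.0313 from limma). Serping1, like Serpina3n, was lower in KO than in WT at day 4, at 5749.3 and 4745.1 (log2 difference -1.13, adjusted p = 0.262 from limma). Of the other 9 serpins of clade A3, only Serpina3a and Serpina3i had a probe set, and both lay under the filter at 8.5 to 95.8. Probes of Serpina3n may also bind RNA of these close relatives, and the files do not tell them apart.

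Of the inducers of the acute-phase response, 19 of 22 were tested and 0 were called between KO and WT at either day, beside 0.0154% of all tested genes. In KO hosts 14 of the 19 differences from day 4 to day 6 were positive and 3 were called higher, beside 6.24% of all tested genes called in either direction. The called genes were the cytokine gene Il6, from 635.9 and 458.3 to 2123.8 and 1299.4 (log2 difference 1.59, adjusted p = 0.0229 from limma), the IL-1 receptor Il1r1 (0.99, adjusted p = 0.0372 from limma) and the NF-kappaB regulator Bcl3 (1.17, adjusted p = 0.0393 from limma). In WT hosts Il6 was at 594.9 and 475.2 in day 4 and at 845.7 and 699.9 in day 6 (log2 difference 0.52, adjusted p = 0.266 from limma). At day 4 the WT and KO arrays overlapped for Il6, while those of Serpina3n did not. The glucocorticoid response list had 10 of 10 genes tested and 0 called between the hosts, beside 0.0154% of all tested genes at either day. Klf9, a target of the glucocorticoid receptor, fell from day 4 to day 6 in WT (log2 difference -1.23, adjusted p = 0.0414 from limma), beside 5.8% of all tested genes called. Genes of the circadian clock, 13 of 13 tested, had median differences between the days of -0.70 in WT and -0.78 in KO. Of the 13, 5 were called lower at day 6 in WT and 3 in KO. Whether the hour of dissection differed between the days is not known here.

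The interferon-gamma response was followed by 16 tested genes, and 0 were called between KO and WT at either day, beside 0.0154% of all tested genes. From day 4 to day 6, 15 of the 16 differences were positive in KO and all 16 in WT hosts. Of the 16, 12 were called higher in KO and 3 in WT, beside 6.24% and 5.8% of all tested genes called in either direction. For the difference between the effects 0 of the 16 were called, as were 0% of all tested genes. Among those called higher were the chemokine gene Cxcl9 (log2 difference 4.56 in KO, adjusted p = 0.0215 from limma) and the GTPase gene Gbp2 (4.19 in KO, adjusted p = 0.00506 from limma). Of the 19 tested receptors and targets of the described proteins, 0 were called between the hosts at either day, beside 0.0154% of all tested genes. From day 4 to day 6, 10 of the 19 differences were positive in KO and 6 in WT. Gzmb alone was called, beside 6.24% and 5.8% of all tested genes. It was higher at day 6 by a log2 difference of 3.54 in KO (adjusted p = 0.00212 from limma) and 2.40 in WT (adjusted p = 0.0134 from limma). Serpina3n had a negative difference between the days in WT and a positive one in KO, so that its sign was opposite to that of Gzmb in WT hosts only.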

How the data were processed

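The deposited values are intensity signals of the 45101 probe sets of Affymetrix mouse arrays, in linear units. The authors made them from biotin-labelled cRNA with MAS5, which the submitters' processing notes name without a version. As scaled by the authors, the 2% trimmed mean is 1000 on every array and the medians run from 133.2 to 175.2. Replicate arrays of a group correlated at 0.941 to 0.953 (Spearman).

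Groups were taken from the labels. The symbols came from the platform annotation, in which 34958 probe sets had 1 symbol, 932 several and 9211 none, and only the first were named. Each gene was represented by the probe set with the highest mean signal. Genes with a mean of log2(signal + 16) at or above the 40th percentile entered a limma fit (version 3.58.1, R 4.3.3) of the 4 groups, all 8 arrays together, which left 4 residual degrees of freedom. The variance prior followed the mean, and p-values were adjusted over all 12972 tested genes by Benjamini-Hochberg, with calls under 0.05. Intervals are at 95%. The number of arrays limits the precision.

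The members and lists were chosen with earlier results of these data known. The genes named are all members, the called members of each pathway list (at most the 4 with the largest difference), up to 3 markers of a cell type, the 5 genes most like Serpina3n, and Xist and Eif2s3y. Tlr3, Tlr7 and Tlr9 were added as a check of the genotype. Motifs were searched in RefSeq windows (GRCm38.p6) by letters. Protein sequences were not used here.

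In 20 simulations of the day 4 comparison of KO and WT, each with 200 changed genes among 12972, the procedure found 46.2% of the genes shifted by 1 on the log2 scale, 85.9% of those shifted by 2 and 94.6% of those shifted by 3. The mean number of false calls was 7.35. With 200 changed genes the adjustment is less strict than in the real comparison, where 2 genes were called. These shares thus do not give the power of the real comparison. The replicate numbers were not taken to pair the samples, since the labels do not say what a number shares and the deviations of same-numbered arrays correlated at -0.12 to 0.27, above 0.1 for 3 of 6 pairs of groups. Alternatives were quantile normalization, median centring, other pseudocounts (1 and 64), flooring at the 20th percentile, dropping the filter or raising it to the 60th percentile, other choices of probe set, no trend, the replicate block, the compared groups alone, leaving out each array, and the methods' t-test. A crossed block and the fit without 3 muscle-rich arrays were chosen after seeing the data.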

Additional observations from a re-analysis of the deposited data

Results flagged for a closer look

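From day 4 to day 6 Serpina3n was lower in both WT arrays and higher in both KO arrays. The WT difference passed the test (adjusted p = 0.0255 from limma) and the KO difference did not (0.0768), and the day effect in KO minus that in WT was 1.64 on the log2 scale (adjusted p = 0.994 from limma over all tested genes). Saa1, under the filter on low signals, showed the same opposition, and its day effect in KO minus that in WT was 2.39, a difference that was not tested over all genes. It rests on KO signals of 35.6 and 8.6 at day 4, under the 40th percentile of their arrays, and ran from 1.44 to 3.22 over 16 alternatives, of which 5 moved it by more than the spread between replicates.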

How the results depend on the processing

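Of 31 differences of tested genes that were followed, 15 had the same sign under every alternative run and 16 turned under some, 14 of them only when an array was left out. Serpina3n kept its sign in every comparison. Serpina3n was the 1 described gene called in KO against WT at day 4. The call was lost with no trend, with the replicate block (adjusted p = 0.0771 from limma), with the compared groups alone and with the methods' t-test after Benjamini-Hochberg. Leaving out 1 array, or the 3 muscle-rich arrays, leaves 1 sample in a group, and the call then depended on the arrays left out. Between days in WT the 1 described gene called, Serpina3n, became 0 with no trend, with the compared groups alone and with the adjusted t-test of the methods. The replicate block (adjusted p = 0.0450 from limma) and the crossed block (0.0247) kept it, and on leaving out arrays it depended on the array. Lost were the fits without WT day 6 replicate 1 (0.184), WT day 4 replicate 2 (0.0573), KO day 4 replicate 1 (0.0636) and KO day 4 replicate 2 (0.0626). Over both days the 0 described genes called became 1, Serpina3n, with median centring, pseudocount 64, the floor and the mean of all probe sets. On leaving out arrays this too depended on the array. In KO the 0 described genes called between days became 1 with median centring. There the median log2 difference of all tested genes between the days was 0.17 in KO and 0.20 in WT. Without centring it was 2.4e-04 in KO and 0.01 in WT. What the shared numbers mean is not settled, and the replicate block changed no other call of a described gene.

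With the mean of all probe sets, Ptx3 for KO against WT at day 6 became -0.11. Hp for KO against WT at day 4 became 0.76 without the muscle-rich arrays. Leaving out 1 array, where a lone sample is assumed to vary like the other groups, gave these ranges of log2 differences for the genes whose sign turned. For KO against WT at day 6, they were -0.57 to 0.82 (Saa3), -1.19 to 0.86 (Lcn2), -2.10 to 0.11 (Hp), -0.61 to 0.26 (Lbp), -0.32 to 0.98 (Ptx3) and -1.50 to 0.29 (Lrg1). At day 4, they were -2.47 to 0.51 (Saa3) and -2.49 to 0.40 (Hp), and without a change of sign -1.90 to -0.25 (Lrg1), -1.93 to -0.60 (Lcn2) and -2.33 to -1.11 (Ptx3). Between the days in WT, they were -0.99 to 1.99 (Saa3), -1.72 to 1.17 (Hp), -0.33 to 0.54 (Lbp), -1.03 to 0.19 (Ptx3) and -0.81 to 0.98 (Lrg1). Between the days in KO, they were -1.77 to 0.27 (Lcn2), -0.61 to 0.15 (Hp) and -0.034 to 1.13 (Lrg1). The cause of these changes was not tested. The numbers of all genes called ran from 0 to 763 at day 6, 0 to 813 at day 4, 0 to 1776 between days in WT and 1 to 2625 in KO. These ranges include the methods' t-test without adjustment, where a gene counts at an unadjusted p under 0.05. They are thus not all counts of calls at an adjusted p under 0.05.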
